A study of Homo sapiens with 4 samples.

Results

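The genes described here are those of fibroblast growth factor (FGF) signalling, taken as the rows of the gene table whose symbol is FGF2, FGF4, FGF8, FGF17, FGF19, FGFR1, FGFR2, FGFR3, FGFR4 or FGFBP3. All 10 were found, among 57905 gene identifiers. Polyadenylated RNA was sequenced from cells labelled as MG63, an established human osteosarcoma line, grown in medium with fetal bovine serum. A control siRNA was given to 2 of the 4 libraries and an siRNA against KLF11, a zinc finger transcription factor, to the other 2, and the cells were cultured for 48 hours after transfection. The labels name no other agent or allele, no siRNA sequence, and no separate cultures behind the replicates, so each p-value rests on the spread between libraries alone, and that spread may be technical.

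FGFs are secreted proteins that bind receptor tyrosine kinases, FGFR1 to FGFR4, together with heparan sulphate chains on the cell surface. The bound receptor phosphorylates the docking protein FRS2 and starts the RAS to ERK kinase cascade, which in turn raises its own inhibitors. In the early embryo FGF signals guide cells through gastrulation, and in culture added FGF2 keeps human pluripotent cells undifferentiated.

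Levels are in FPKM, sequenced fragments per length of gene and per size of library. This puts genes of different length on a common scale. Comparisons between libraries also depend on how the libraries are scaled, as the fits with other scalings below show. Values of single libraries are listed with replicate 1 first. Changes are log2 differences of FPKM + 1, KLF11 siRNA minus control siRNA, with their standard error (SE), and adjusted p-values are from limma over 15320 genes with a mean of at least 1 FPKM. Each library had an FPKM sum between 577849 and 604498, and the number of reads is not known. KLF11 itself was at 12.3 and 12.4 FPKM in control against 5.49 and 6.74 FPKM with KLF11 siRNA.

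The label MG63 was set against cell type markers. All 8 pluripotency markers were above 1 FPKM in some library, with a summed level of 1512 to 1525 FPKM in control against 2483 to 2977 FPKM with KLF11 siRNA, and so were all 9 markers of primitive streak and endoderm, with 5306 to 5315 and 1605 to 3475 FPKM. Most of the rise in the pluripotency sum was POU5F1, and most of the endoderm sum was CER1. Of 10 osteoblast and mesenchymal markers, 7 reached 1 FPKM in some library (summed level 876 to 917 and 987 to 992 FPKM), mostly through SPARC, COL1A2 and ALPL. The osteoblast factor RUNX2 was at most at 0.65 FPKM and SP7 at most at 0.04 FPKM. TWIST1 rose from 1.08 and 0.79 to 14.11 and 8.01 FPKM, tested only through the KLF11 siRNA libraries. COL1A1 fell from 23.29 and 22.33 to 11.87 and 15.79 FPKM. COL3A1 went from 0.01 and 0 to 1.40 and 0.95 FPKM and was too low to be tested. Neural markers summed to 182 to 198 FPKM in control against 90.35 to 100.02 FPKM with KLF11 siRNA, and leukocyte markers to at most 0.66 FPKM. Most of the neural sum was TUBB3, which fell, as PAX6 did. MAP2 went the other way, from 0.18 and 0.44 to 8.27 and 3.14 FPKM, and was tested only through the KLF11 siRNA libraries. SOX1 and NEUROD1 were too low to be tested. Both groups thus held transcripts known from pluripotent cells and early endoderm, with the osteoblast factors RUNX2 and SP7 below 1 FPKM. Since whole cultures were sequenced, fewer cells of a type and less RNA per cell cannot be told apart.

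With KLF11 siRNA, 4 of the 10 FGF genes rose and 5 fell, where 13.5% of all tested genes rose and 21.7% fell. The 10 genes were chosen with earlier results of these data known, so these counts are no test against those shares. FGF2, FGF4, FGF19 and FGFBP3 were the genes that rose, and FGF8, FGF17, FGFR2, FGFR3 and FGFR4 those that fell, while FGFR1 did not pass. With median-of-ratios scaling, which sets the typical gene equal between libraries, 2758 of all tested genes rose and 2589 fell, against 2071 and 3329 on FPKM as deposited, and 4 FGF genes rose and 4 fell. With no filter on low values 1 FGF gene (FGF2) rose and 2 (FGF8 and FGFR2) fell, while FGF17 (limma adjusted p = 0.0959), FGF4 (0.0676), FGF19 (0.106), FGFBP3 (0.0567), FGFR3 (0.0863) and FGFR4 (0.0551) did not pass. All 10 passed the filter on low values, and none of them passed it through 1 group alone, since each had a mean above 1 FPKM in both groups. For all 10 genes the control and KLF11 siRNA values did not overlap, which also held for 73.4% of all tested genes. Without control siRNA replicate 1 or 2 the calls of the FGF genes did not hold, but only 1 control library was then left. The spread in those fits came from the KLF11 siRNA pair alone. Without a KLF11 siRNA library it came from the control pair alone. The calls of neither kind of fit can be set against the main ones. Across genes the control pair lay closer together, with a median SD of 0.0871 against 0.126. The main calls thus rest in part on the closeness of the controls. The direction of every FGF gene was kept. Without control siRNA replicate 1 or 2 the log2 changes were 2.60 and 2.77 for FGF2 and -0.71 and -0.67 for FGF8. With all libraries they were 2.68 and -0.69. A test by exact permutation of 2 against 2 libraries cannot give a two-sided p under 0.333 and was not used.

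**Figure D1:**
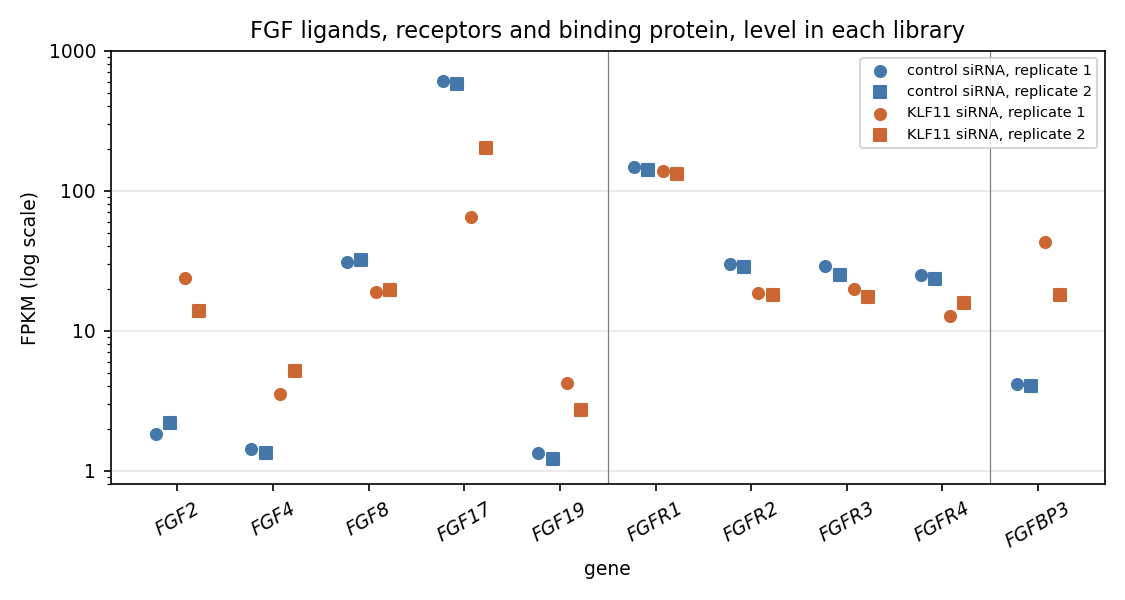
FPKM on a log scale for each FGF gene in each of the 4 libraries (circles replicate 1, squares replicate 2, blue control siRNA, orange KLF11 siRNA), with vertical lines between ligands, receptors and the binding protein. FGF17 has the widest gap between its KLF11 siRNA libraries, 64.5 and 201 FPKM, and the libraries of FGFR1 lie between 131 and 149 FPKM.

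FGF17 was the most abundant FGF ligand in every library. It encodes a secreted ligand closely related to FGF8. It measured 604 and 577 FPKM in control against 64.5 and 201 FPKM with KLF11 siRNA. Every KLF11 siRNA value was below both controls, and replicate 2 was 3.11-fold above replicate 1. Group means were 591 ± 19.5 and 133 ± 96.2 FPKM (± SD, n = 2 each), a 4.46-fold fall with a log2 change of -2.36 (SE 0.51, limma adjusted p = 0.0219). In control cells FGF17 stood above 99.1% of all tested genes. Without KLF11 siRNA replicate 1 the log2 change was -1.55, and without replicate 2 it was -3.17. The summed level of the primitive streak and endoderm markers took the same order, at 5315 and 5306 FPKM in control against 1605 and 3475 FPKM in KLF11 siRNA replicates 1 and 2. Most of that sum was CER1, a secreted inhibitor made by early endoderm, at 4430 and 4406 FPKM in control against 958 and 2574 FPKM with KLF11 siRNA (limma adjusted p = 0.0543). Of the 9 markers 3 rose, TBXT, MIXL1 and EOMES, and 3 fell, SOX17, FOXA2 and HHEX, and their part in the change of FGF17 was not tested.

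FGF8, a signal that cells of the primitive streak need during gastrulation, fell far less than its relative FGF17. It was at 31.2 and 32.3 FPKM in control against 19.0 and 19.6 FPKM with KLF11 siRNA. The values within each group lay close together, whereas the KLF11 siRNA values of FGF17 did not. The log2 change was -0.69 (SE 0.09, limma adjusted p = 0.00697), a 1.64-fold fall. The level of FGF17 was 19.4 and 17.9 times that of FGF8 in the control libraries and 3.39 and 10.2 times in the KLF11 siRNA libraries. FGF18, which belongs to the same subfamily, was at most at 0.78 FPKM.

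FGF2, or basic FGF, has no classical signal peptide, leaves the cell by an unconventional route and is stored on heparan sulphate. It went from 1.82 and 2.18 FPKM in control to 23.98 and 13.82 FPKM in KLF11 siRNA libraries. Both KLF11 siRNA values were several times the higher control value, with replicate 1 above replicate 2. Group means were 2.00 ± 0.255 and 18.9 ± 7.18 FPKM (± SD, n = 2 each), a 9.45-fold rise with a log2 change of 2.68 (SE 0.27, limma adjusted p = 0.00450). FGF2 and FGFBP3 had the largest log2 changes among the 4 genes that rose, and which of them ranked first depended on the setting: with a pseudocount of 5 the log2 changes of FGF2 and FGFBP3 were 1.74 and 1.87, and without KLF11 siRNA replicate 2 they were 3.06 and 3.10. FGF2 stood above 13.2% of tested genes in control and above 68.3% with KLF11 siRNA. On the opposite strand the gene NUDT6 overlaps FGF2, and the strand setting of the counting is not given in the sources used here. NUDT6 measured 2.80 and 3.03 FPKM in control against 3.16 and 3.51 FPKM with KLF11 siRNA and did not pass (limma adjusted p = 0.505).

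The start of FGF2 is shown because it is one of the genes with a large rise. The 250 bases before its RefSeq start are at chr4:122826581-122826830 (GRCh38.p14, + strand) and hold 3 matches to the GC box GGGCGG and 2 to the CACCC box, motifs bound by factors of the Sp and Krüppel-like family, here in capitals on either strand:
FGF2: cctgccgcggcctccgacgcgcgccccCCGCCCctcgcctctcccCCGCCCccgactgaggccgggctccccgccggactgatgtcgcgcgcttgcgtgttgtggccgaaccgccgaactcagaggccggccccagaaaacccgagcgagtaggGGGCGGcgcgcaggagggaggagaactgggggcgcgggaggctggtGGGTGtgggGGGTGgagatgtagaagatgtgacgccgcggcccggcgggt

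FGF4 and FGF19 were the scarcest of the 10 genes in control cells and rose by smaller amounts. FGF4, a ligand made by pluripotent cells whose gene is a classical target of POU5F1 and SOX2, went from 1.43 and 1.33 to 3.53 and 5.17 FPKM. Here KLF11 siRNA replicate 2 was the higher library, the reverse of FGF2. The rise was 3.15-fold, with a log2 change of 1.15 (SE 0.21, limma adjusted p = 0.0151). At such levels the log2 change depends on the pseudocount: with 0.1 and 5 in place of 1 it was 1.56 and 0.55 for FGF4 and 1.34 and 0.43 for FGF19, and for FGF2 3.13 and 1.74. FGF19 encodes an endocrine ligand that in the adult signals from gut to liver through FGFR4 and the co-receptor beta-Klotho. It went from 1.34 and 1.22 to 4.26 and 2.71 FPKM, a 2.72-fold rise (log2 change 0.95, SE 0.23, limma adjusted p = 0.0295). Both KLF11 siRNA values were above both controls for each of these genes. Without KLF11 siRNA replicate 1 or 2 the log2 change of FGF19 was 0.70 or 1.21. Beta-Klotho (KLB) was at 0.16 to 0.19 FPKM in all 4 libraries.

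POU5F1 and SOX2, the known regulators of FGF4, rose in the same libraries, SOX2 from 6.68 and 6.36 to 23.4 and 18.1 FPKM. The summed pluripotency markers were between 1512 and 1525 FPKM in control and at 2977 and 2483 FPKM in KLF11 siRNA replicates 1 and 2, while FGF4 had its higher value in replicate 2. Most of the rise in that sum was POU5F1, while LIN28A fell and TDGF1 did not pass. Of those 8 markers 6 rose and 1 fell, and their part in the changes of FGF2, FGF4 and FGF19 was not tested. FGF4 and FGF19 are next to each other in the GENCODE 29 annotation, with LTO1 on the far side of FGF19 and FGF3 on the far side of FGF4. LTO1 measured 8.50 and 6.99 FPKM in control against 6.98 and 8.67 FPKM with KLF11 siRNA (limma adjusted p = 0.962), and FGF3 was at most at 0.09 FPKM. Across the 18 nearest protein-coding genes of the 10 FGF genes that are no FGF gene of this set, 15 were tested, 1 rose and 4 fell, where 13.5% and 21.7% of all tested genes did. FBXW4, beside FGF8, fell from 37.8 and 40.4 down to 10.9 and 13.6 FPKM, and the others that fell were WDR11 beside FGFR2 and ZNF346 and NSD1 on either side of FGFR4.

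Taking the 18 secreted ligands of the family as a whole, the summed level was 644 and 617 FPKM in control against 126 and 253 FPKM with KLF11 siRNA. FGF17 made up 93.8% and 93.5% of that sum in control and 51.2% and 79.2% in KLF11 siRNA replicates 1 and 2. The share of FGF2 was 0.283% and 0.353% in control and 19.0% and 5.46% with KLF11 siRNA. Leaving FGF17 out, the other 17 ligands summed to 39.7 and 39.9 FPKM in control against 61.4 and 52.8 FPKM with KLF11 siRNA. The drop in the summed level was thus carried by FGF17.

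**Figure D2:**
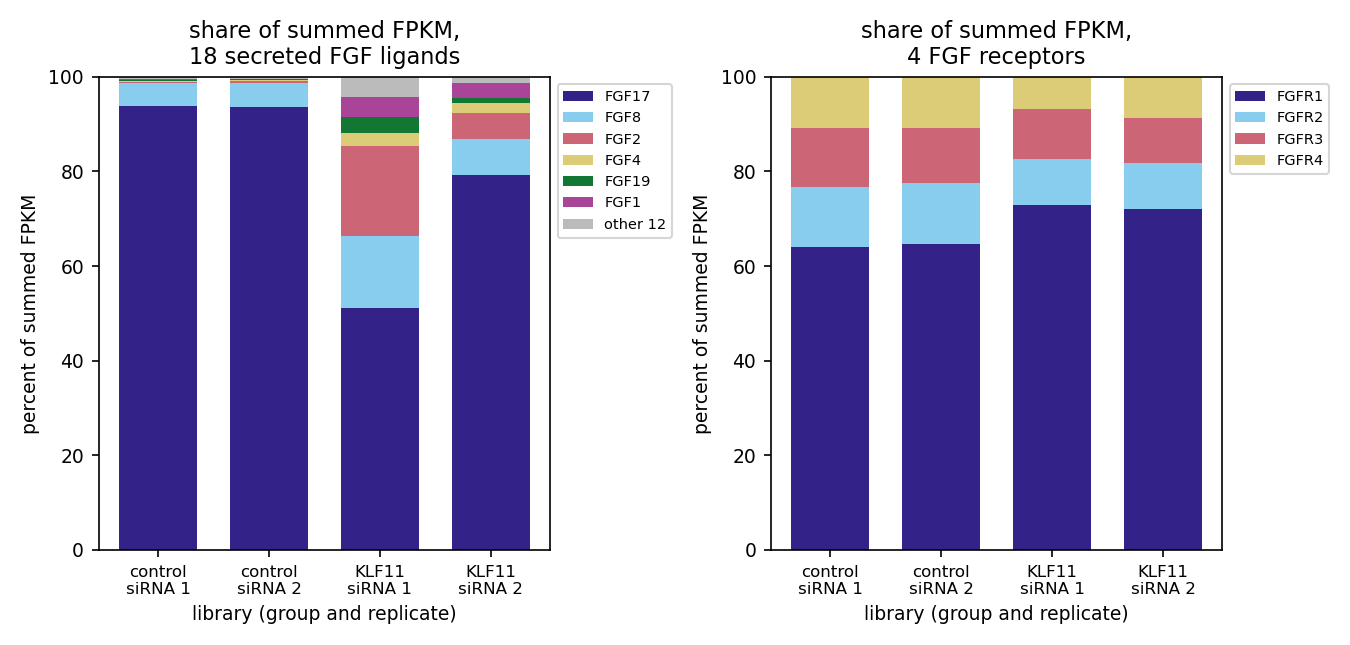
Share in percent of the summed FPKM of 18 secreted FGF ligands (left) and of 4 FGF receptors (right) in each library, 1 stacked bar per library. FGF17 falls from 93.8% and 93.5% in control to 51.2% and 79.2% with KLF11 siRNA, and FGFR1 goes from 64.0% and 64.6% to 72.9% and 72.1% of the receptors.

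Of the 17 FGF genes beyond the 5 ligands above, 5 were tested and 12 were below the filter. FGF1, the closest relative of FGF2, also lacks a signal peptide. It was at 0.49 and 0.16 FPKM in control against 5.36 and 7.97 FPKM with KLF11 siRNA. It entered the test only through the KLF11 siRNA libraries, so its call supports nothing here. FGF10 entered in the same way and did not pass. FGF11, FGF12 and FGF13, relatives that stay inside the cell and do not act through FGF receptors, did not pass either. FGF13 was the most abundant of these, with 34.4 and 38.5 FPKM in control against 55.1 and 43.2 FPKM with KLF11 siRNA (limma adjusted p = 0.0754). With median-of-ratios scaling its limma adjusted p was 0.0465. Its log2 change was 0.41, and without KLF11 siRNA replicate 1 or 2 it was 0.24 or 0.58.

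FGFR1 was the most abundant receptor in every library and did not pass the test. It was at 149 and 140 FPKM in control against 138 and 131 FPKM with KLF11 siRNA. The nearest values of the groups, 140 and 138 FPKM, lay closer together than the control libraries did. The group means were 144 and 135 FPKM. The log2 change was -0.10, with a 95% confidence interval from -0.31 to 0.11 (limma adjusted p = 0.381). It was 0.0297 with median-of-ratios scaling, so its sign depends on the scaling. The antisense transcript AC087623.1, which overlaps FGFR1 in the annotation, fell from 6.56 and 5.94 down to 2.49 and 2.81 FPKM (limma adjusted p = 0.00977), and without strand its reads and those of FGFR1 cannot be told apart.

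The other 3 receptors were at lower levels and fell. FGFR2, whose alternative exons make an epithelial IIIb and a mesenchymal IIIc form, went from 29.8 and 28.3 to 18.5 and 17.9 FPKM (log2 change -0.65, SE 0.09, limma adjusted p = 0.00861). FGFR3, best known for the mutations behind achondroplasia, went from 29.01 and 25.13 to 19.9 and 17.4 FPKM (log2 change -0.51, SE 0.12, limma adjusted p = 0.0298). FGFR4, the receptor that FGF19 uses in liver, went from 24.9 and 23.4 to 12.8 and 15.7 FPKM (log2 change -0.73, SE 0.13, limma adjusted p = 0.0138). For each of them both KLF11 siRNA values were below both controls. The falls were 1.60-fold, 1.45-fold and 1.70-fold, against a median log2 change of -0.11 over all tested genes. Besides the fit with no filter, FGFR3 did not pass with median-of-ratios scaling (limma adjusted p = 0.0604) or without a variance trend (0.0515). Without KLF11 siRNA replicate 1 or 2 its log2 change was -0.61 or -0.42.

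In the control libraries FGFR2, FGFR3 and FGFR4 lay within 23.4 to 29.8 FPKM, with the values of FGFR2 and FGFR3 interleaved. FGFR1 was 1.78 and 1.82 times their summed level in control and 2.69 and 2.58 times in KLF11 siRNA libraries. The summed level of the 4 receptors was 232 and 217 FPKM in control against 189 and 182 FPKM with KLF11 siRNA. Values per gene do not separate the IIIb and IIIc forms.

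The receptor starts are shown as the set of genes that fell together, at the most upstream RefSeq start of each: chr10:121598445-121598694 (FGFR2, - strand), chr4:1793043-1793292 (FGFR3, + strand) and chr5:177086665-177086914 (FGFR4, + strand), each 250 bases before the start in GRCh38.p14, with GC boxes (GGGCGG) and CACCC boxes on either strand in capitals, some of which overlap:
FGFR2: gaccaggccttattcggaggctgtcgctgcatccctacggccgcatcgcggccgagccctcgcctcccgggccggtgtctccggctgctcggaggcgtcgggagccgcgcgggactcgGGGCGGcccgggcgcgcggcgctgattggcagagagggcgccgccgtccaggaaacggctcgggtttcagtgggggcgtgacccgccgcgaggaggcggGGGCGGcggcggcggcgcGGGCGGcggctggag
FGFR3: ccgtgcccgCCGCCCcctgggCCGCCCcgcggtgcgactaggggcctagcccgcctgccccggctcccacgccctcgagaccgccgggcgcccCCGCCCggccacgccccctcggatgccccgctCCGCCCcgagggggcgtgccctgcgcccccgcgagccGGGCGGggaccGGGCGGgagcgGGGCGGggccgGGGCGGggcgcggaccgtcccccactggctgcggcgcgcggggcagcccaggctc
FGFR4: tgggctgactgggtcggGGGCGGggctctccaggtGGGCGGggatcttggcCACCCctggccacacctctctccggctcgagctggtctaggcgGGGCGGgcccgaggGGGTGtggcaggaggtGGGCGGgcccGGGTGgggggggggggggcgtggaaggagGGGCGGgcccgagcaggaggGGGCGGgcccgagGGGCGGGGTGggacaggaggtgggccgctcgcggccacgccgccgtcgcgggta

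These stretches hold 3, 8 and 7 GC boxes in FGFR2, FGFR3 and FGFR4. Over windows of 300 bases, which add 50 bases after the start, the counts were 5, 8 and 7, and 3 in FGF2. At least 1 GC box is in 45.0% of all 35116 RefSeq windows of that length, and at least 1 CACCC box in 59.9%. Fewer GC boxes than in FGF2, FGFR2, FGFR3 and FGFR4 were in 84.2%, 94.9%, 99.2% and 98.5% of these windows. These genes' windows were also richer in G and C than 89.7%, 96.7%, 99.9% and 96.0% of them. The 300-base windows were also searched on both strands for CATTCC, the core bound by TEAD factors (in 14.0% of all windows), for the AP-1 site TGANTCA (7.71%) and for TATAAA (11.5%). At the starts printed, the windows of FGF2, FGFR2 and FGFR3 had 0 matches to each, and that of FGFR4 had 1 CATTCC and 0 of the others. RefSeq lists 5 starts for FGFR2 and 2 for FGFR4, and the gene table does not say which was used. The starts printed are the ones richest in GC boxes: of the other 4 FGFR2 windows 3 hold 0 GC boxes and 1 holds 1, and the other FGFR4 window holds 0. The other FGFR2 windows that include chr10:121531315-121531564 and chr10:121596646-121596895 hold 1 CATTCC each.

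FGFBP3 encodes a secreted carrier that binds FGFs and frees them from the matrix. It went from 4.19 and 4.05 FPKM in control to 42.8 and 18.1 FPKM in KLF11 siRNA libraries. Both values were above the controls, and replicate 1 was 2.36-fold above replicate 2. The rise was 7.39-fold, with a log2 change of 2.50 (SE 0.38, limma adjusted p = 0.00988). Leaving out KLF11 siRNA replicate 1 gave 1.90 and leaving out replicate 2 gave 3.10. The related carriers FGFBP1 and FGFBP2 were at most at 0.10 FPKM.

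The start of FGFBP3 is shown as that of the other gene with a large rise. The 250 bases before it, at chr10:91909487-91909736 (GRCh38.p14, - strand), hold 0 GC boxes and 0 CACCC boxes, unlike the FGF2 stretch above, so nothing is in capitals:
FGFBP3: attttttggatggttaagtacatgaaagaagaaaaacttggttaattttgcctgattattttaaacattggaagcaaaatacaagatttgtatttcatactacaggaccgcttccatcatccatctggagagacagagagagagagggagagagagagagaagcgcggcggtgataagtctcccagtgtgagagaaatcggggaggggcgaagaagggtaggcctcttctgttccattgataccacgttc

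The 300-base window of FGFBP3 had 45.7% G and C, where the median of all windows was 58.7%, and it held 0 matches to any of the motifs searched.

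**Figure D3:**
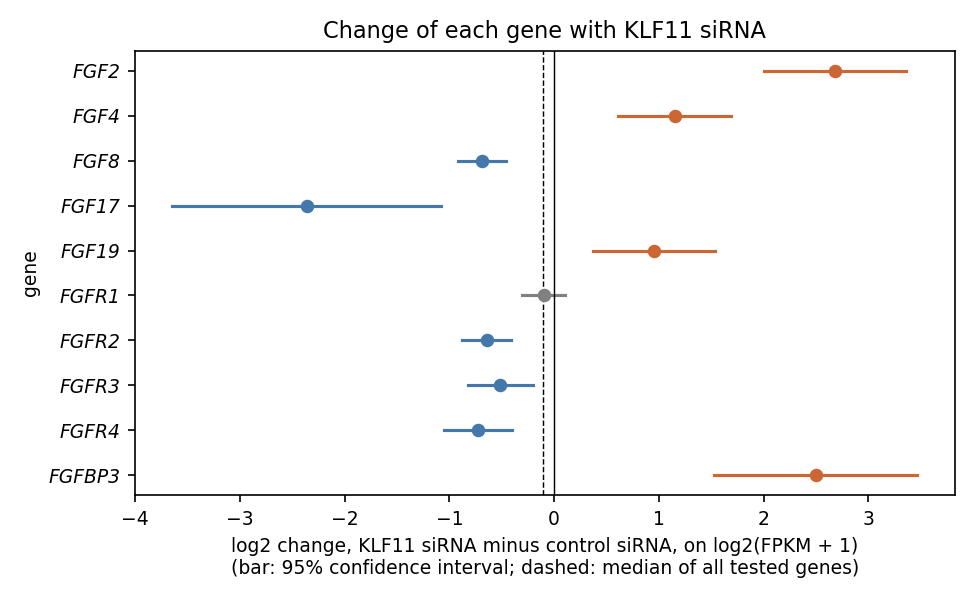
Log2 change of each FGF gene with KLF11 siRNA on log2(FPKM + 1), with its 95% confidence interval from limma (orange higher, blue lower, grey not past the threshold) and the median of all tested genes as a dashed line. The interval of FGFR1, from -0.31 to 0.11, holds 0, and that of FGF17 is the widest, from -3.65 to -1.08.

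KLF11 siRNA replicate 1 stood farther from the controls than replicate 2 for FGF17, FGF2, FGF19, FGFBP3, FGF8 and FGFR4. That order is not particular to the FGF genes. On the first principal component of all tested genes (81.4% of the variance) replicates 1 and 2 were at 58.1 and 33.8. The controls were at -47.6 and -44.4 there. Replicate 2 stood farther for FGF4, FGFR1, FGFR2 and FGFR3. The gap between the KLF11 siRNA libraries was 3.11-fold in FGF17, 2.36-fold in FGFBP3 and 1.74-fold in FGF2, and 1.03-fold in FGF8 and in FGFR2.

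Around the ligands and receptors, 9 co-receptors and other binders of FGFs or FGFRs were listed, of which 4 were tested, 2 rose and 2 fell. Of all tested genes 13.5% rose and 21.7% fell. ANOS1, a matrix protein that modulates FGFR1 signalling, went from 13.7 and 14.3 to 62.0 and 48.0 FPKM, a 3.93-fold rise (limma adjusted p = 0.00291). FLRT2 rose from 16.4 and 16.2 to 26.5 and 23.4 FPKM, whereas its relative FLRT3, which binds FGFRs, fell from 17.6 and 16.7 down to 7.01 and 11.8 FPKM. FGFRL1, a receptor-like protein with no kinase domain, fell from 21.7 and 20.9 down to 9.96 and 15.4 FPKM. The calls of FGFRL1 and FLRT3 (limma adjusted p = 0.0440 and 0.0437) did not hold with median-of-ratios scaling (0.0590 and 0.0548) or without a variance trend (0.0670 and 0.0651). With no filter on low values FGFRL1, FLRT3 and FLRT2 did not pass (limma adjusted p = 0.135, 0.137 and 0.0504).

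Heparan sulphate, the sugar chain that holds ligand and receptor together, is made and edited by the next group. Of 18 such genes 14 were tested, 3 rose and 4 fell, where 13.5% and 21.7% of all tested genes did. Their median log2 change was -0.0074 against -0.11 over all tested genes. SULF1, an extracellular sulphatase that removes sulphate from the chains, rose from 2.45 and 2.80 to 9.18 and 11.4 FPKM (limma adjusted p = 0.00450). SULF2, with the same activity, fell from 104 and 106 down to 57.5 and 79.8 FPKM (limma adjusted p = 0.0366). EXT1, a polymerase of the chain, rose 1.80-fold, and GLCE, an epimerase, fell from 11.3 and 12.9 down to 4.24 and 6.28 FPKM. Among the 6-O-sulphotransferases HS6ST2 rose from 1.12 and 0.86 to 4.11 and 3.24 FPKM and HS6ST1 fell from 65.6 and 60.1 down to 32.1 and 42.4 FPKM. HS6ST2 passed the filter only through the KLF11 siRNA libraries, and SULF2 and HS6ST1 were named after their values were seen. The number that fell was 2 with median-of-ratios scaling, where 5 rose, 2 without a variance trend and 0 with no filter on low values.

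Inside the cell, 1 of 10 tested adaptors rose and 4 fell, with a median log2 change of -0.32. FRS2, the docking protein of FGF receptors, fell from 12.6 and 14.9 down to 8.04 and 8.33 FPKM (log2 change -0.68, limma adjusted p = 0.0167). Its relative FRS3 fell from 5.27 and 5.10 down to 1.61 and 2.69 FPKM, and GAB1 and CBL fell as well, while the phosphatase PTPN11 rose 1.47-fold. In the cascade from RAS to ERK, 0 of 13 tested genes rose and 4 fell, with a median of -0.28. Over all tested genes 13.5% rose and 21.7% fell, with a median of -0.11. The cascade genes that fell included MAPK3, which encodes ERK1, from 44.7 and 39.1 to 12.3 and 19.6 FPKM (limma adjusted p = 0.0113). MAP2K2 and MAP2K1 were 1.45-fold and 1.43-fold lower. With median-of-ratios scaling 2 adaptors and 3 cascade genes fell, and with no filter on low values 0 of either; without a variance trend 2 cascade genes fell.

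Genes that FGF and ERK signals are known to induce were listed as the last signalling group. Of 16 feedback and response genes 14 were tested, 10 rose, 0 fell and 4 did not pass, where 13.5% of all tested genes rose and 21.7% fell. Their median log2 change was 1.21 against -0.11 over all tested genes. This list too was chosen with earlier results of these data known, so its counts and median are no test against all genes. IL17RD, also called SEF, a membrane inhibitor of FGF receptor signals, went from 20.99 and 21.31 to 63.9 and 53.5 FPKM (log2 change 1.43, limma adjusted p = 0.00324). DUSP6 and SPRY4, the inhibitors with the largest rises in this group, had log2 changes of 3.12 and 2.59, and ETV5, a transcription factor induced by FGFs, of 1.17. SPRY1 rose from 5.14 and 4.52 to 16.95 and 13.65 FPKM and SPRY2 from 39.1 and 38.8 to 55.7 and 52.1 FPKM. DUSP5 and SPRED2 had log2 changes of -0.21 and -0.23 and did not pass, nor did SPRED1 and ETV1, and SPRY3 and SPRED3 were below the filter. FOSL1, which is among the 10 that rose and in the median, passed the filter only through the KLF11 siRNA libraries. Without control siRNA replicate 1 or 2 most of these calls did not hold, the spread then coming from the KLF11 siRNA pair alone. ERK phosphorylation was not measured here.

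**Figure D4:**
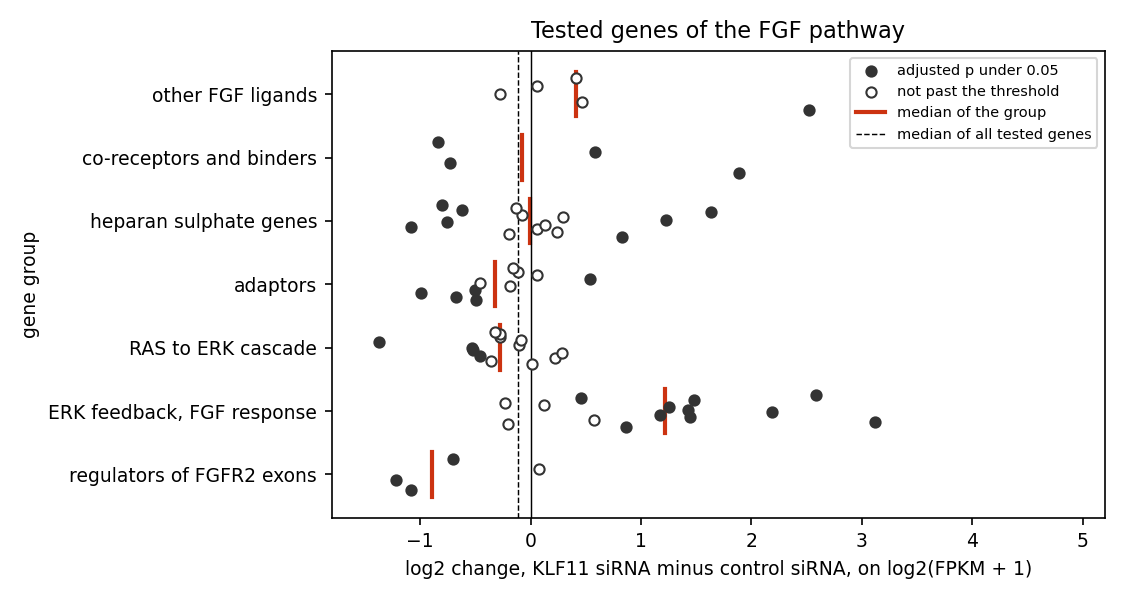
Log2 change of each tested gene in 7 groups of the FGF pathway (filled past the threshold, open not), with the median of each group as a red bar and that of all tested genes as a dashed line. The feedback and response genes have a median of 1.21, and the RAS to ERK cascade one of -0.28.

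The choice between the IIIb and IIIc exons of FGFR2 depends on splicing factors, of which 4 were listed and tested. Of these 0 rose and 3 fell, where 13.5% and 21.7% of all tested genes did. They were listed with earlier results of these data known. ESRP1 and ESRP2, which promote the epithelial IIIb form, fell from 49.6 and 48.7 down to 19.2 and 26.6 FPKM (limma adjusted p = 0.00926) and from 25.28 and 23.97 to 8.03 and 12.4 FPKM (limma adjusted p = 0.0117). With no filter on low values ESRP1 and ESRP2 did not pass (limma adjusted p = 0.0505 and 0.0579). RBFOX2 also fell, 1.64-fold. PTBP1 measured 247 and 211 FPKM in control against 239 and 243 FPKM with KLF11 siRNA (limma adjusted p = 0.587). Which FGFR2 form was present was not analysed here.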

How the data were processed

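The authors deposited a table of FPKM values with 57905 Ensembl identifiers and 4 libraries. The tools named are RSEM 1.3.1 and Trim Galore 0.5.0 on build hg19 (GRCh37), per the submitters' processing notes. Aligner, annotation release, strand setting and filters: not given in the sources used here. RSEM shares ambiguous reads among similar genes, and FPKM holds no read count.

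Columns were matched to sample titles by name (0 unmatched). Genes with a mean of at least 1 FPKM (15320) were fitted with limma 3.58.1 in R 4.3.3 (lmFit, eBayes with trend) on log2(FPKM + 1) as 2 groups without block, with Benjamini-Hochberg adjustment over all of them and a threshold of 0.05. The fit was tested on simulated data. Members, gene lists, markers and the rule for named genes were chosen with earlier results of these data known. The rule names the 10 members, KLF11, POU5F1, SOX2, KLB, FGFRL1, FRS2, ESRP1 and ESRP2, up to 4 tested genes with the smallest p of each pathway list, and the tested further ligands; 1 gene that it names is not reported here. Other genes printed, such as neighbours, SPRY1, SPRY2, CBL, SULF2 and HS6ST1, were chosen after their values were seen. Gene neighbours come from GENCODE 29 (GRCh38), by name and order only, and promoter sequences from RefSeq (GRCh38.p14), which had entries for 5 of the 10 genes: FGF2, FGFR2, FGFR3, FGFR4 and FGFBP3. Alternatives were pseudocounts of 0.1 and 5, no filter, a filter at 5 FPKM, TPM and median-of-ratios scaling, no variance trend, a replicate block and each library left out. Figures were drawn with matplotlib 3.10.9.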

Additional observations from a re-analysis of the deposited data

How the results depend on the processing

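Of 78 fits of single FGF genes under alternatives that kept every library, 69 kept direction and call, 8 kept direction but lost the call and 1 changed sign, FGFR1 with median-of-ratios scaling (log2 change 0.0297), a gene never past the threshold. With no filter on low values 1 FGF gene rose and 2 fell, and 887 and 1251 of all genes did, the number of genes tested being larger; the cause was not tested. A filter at 5 FPKM left 2 that rose, since FGF4 and FGF19 were no longer tested. Leaving out 1 library in turn gave 0 to 4 FGF genes that rose and 0 to 5 that fell, and 9 to 2325 and 2 to 3943 of all genes, with the low ends without a control library. Among other genes, FGF12 ran from -0.14 without KLF11 siRNA replicate 1 to 0.26 without KLF11 siRNA replicate 2 and PTBP1 from -0.0341 without control siRNA replicate 2 to 0.19 without control siRNA replicate 1, and neither passed. Median-of-ratios scaling moved the median log2 change of all genes from -0.11 to 0.0068, with 2758 genes higher and 2589 lower against 2071 and 3329. With the replicate block 4 FGF genes rose and 5 fell, as without it, and 1707 and 2644 of all genes did; GAB1 was then at an adjusted p of 0.0515. The labels do not say that a replicate number marks a shared day or culture, so the numbers were not taken as pairs. The deviations of same-numbered replicates had a correlation of -0.0711 across genes. Depth is unknown, which limits genes near the filter, such as FGF4 and FGF19, whose control levels were at most 1.43 FPKM.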
